A study of Homo sapiens with 4 samples.

Results

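The clustered histone genes are the protein-coding genes of the gene count table whose symbols begin with HIST1H, HIST2H, HIST3H or HIST4H. There were 71 of them among 58735 genes. They comprised 6 genes for the linker histone H1, 17 for H2A, 18 for H2B, 15 for H3 and 15 for H4. On the human genome (GRCh38, GENCODE 29 annotation), 55 lay in the HIST1 cluster on chromosome 6, 12 in HIST2 and 3 in HIST3 on chromosome 1, and 1, HIST4H4, on chromosome 12.

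Histones H2A, H2B, H3 and H4 form the protein core around which DNA is wound, and H1 binds the DNA between cores. Clustered histone genes are made in bulk while DNA is copied. Most of their mRNAs carry no poly(A) tail: they are cut just after a short stem-loop, which the protein SLBP binds. Some clustered genes also give longer transcripts that read past the stem-loop and end in a poly(A) tail.

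Gene counts came from HCC1954, a human breast cancer cell line with amplified HER2 (ERBB2). The 2 shCON samples carried a scrambled short hairpin RNA. The 2 shZDHHC15 samples carried a hairpin against ZDHHC15, a palmitoyltransferase, and the comparison asks what changed with its knockdown. Both hairpins were GIPZ plasmids given by lipid transfection, and cells were taken 36 h later. The sample labels call this transient transfection and the series design calls it stable knockdown, and the study's methods mention monoclonal cultures. The labels do not say whether the samples of a group came from separate cultures, clones or hairpins, so p-values measure only the spread between these samples, which may be technical.

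Total counts ran from 17560982 to 19118704 a sample. ZDHHC15 had 17617 and 15716 counts in the shCON samples and 0 in both shZDHHC15 samples. Why no count at all remained under a hairpin was not tested. The epithelial and HER2 markers KRT8, ERBB2 and GRB7 were abundant in every sample, while PTPRC of leukocytes had 1 to 4 counts and CD3E and LUM had 0. Other markers of such cells were counted in every sample, with 780 to 1487 counts for CDH5 and 56 to 666 for PECAM1, both of endothelium, and 100 to 214 for COL1A1 of fibroblasts. The 2 marker lists nevertheless moved with the groups. Over all genes tested, 20.3% were called lower and 21.7% higher in shZDHHC15 (edgeR adjusted p under 0.05). Of 8 epithelial and HER2 markers, 6 were lower and 1 higher in shZDHHC15, and their summed level was 19440 and 20969 CPM (counts scaled to a common library total) in shCON against 11722 and 11942. All 4 tested of 11 markers of leukocytes, fibroblasts and endothelium were higher, and the sum of the list, most of it CDH5, was 54.5 and 57.1 CPM in shCON against 115 and 106. The part of these shifts in the histone values was not tested, and in bulk samples fewer cells of a type and less RNA per cell cannot be told apart.

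The stem-loop itself could be read from the annotated transcripts of 31 of the 71 genes. It was searched on the transcript strand as a motif of 16 bases, of which 3 could be any base, and 9 of the 58605 other genes with transcripts held it. The form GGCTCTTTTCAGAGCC stood in 17 members, of the H2A, H2B and H3 classes, and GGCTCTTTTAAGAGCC in 5 of the H2B and H3 classes. The 8 H4 genes with a match had forms of their own, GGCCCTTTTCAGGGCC in 5 and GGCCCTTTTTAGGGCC in 3. All 6 stem positions were complementary in each form except that of HIST1H2AG, where 5 were. The stem-loops below belong to genes whose values are described later, with the 16 bases of the match in capitals and 5 transcript bases on either side, 5′ to 3′.
HIST2H2BE: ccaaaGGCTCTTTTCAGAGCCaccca
HIST3H2A: ataaaGGCTCTTTTCAGAGCCaccta
HIST1H2AE: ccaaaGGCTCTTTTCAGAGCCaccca
HIST1H2BG: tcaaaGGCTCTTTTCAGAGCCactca
HIST1H2AG: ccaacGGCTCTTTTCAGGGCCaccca
HIST1H4I: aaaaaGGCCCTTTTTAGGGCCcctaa
HIST4H4: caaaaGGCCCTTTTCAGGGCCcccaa

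Few of these genes held most of the histone counts. Of the 71 genes, 38 were well counted, meaning 20 or more counts over the 4 samples, 21 had 1 to 19 counts and 12 had 0. The well counted genes were 2 of 6 for H1, 11 of 17 for H2A, 14 of 18 for H2B, 4 of 15 for H3 and 7 of 15 for H4. H2B genes took 50.4% of the 28553 histone counts, H2A 27.6%, H4 10.2%, H1 8.98% and H3 2.84%. The 5 most-counted genes, HIST2H2BE, HIST1H2BK, HIST3H2A, HIST1H2AC and HIST1H1C, together took 69.5%.

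Being well counted went with how the gene is annotated. The annotated transcript ran over 60 bases past the stem-loop in 23 genes, of which 20 were well counted, and these 23 held 65.2% of histone counts. It ended within 60 bases after the stem-loop in 8 genes, of which 6 were well counted. The end was read only on transcripts that held the stem-loop. Among these 8, HIST1H2BD has 2 annotated transcripts over chr6:26158146-26171349 and held 1108 of their 1690 counts. In 33 genes the annotation held the coding part alone, with no stem-loop to read, and 9 of these were well counted. Most 100-base windows were shared with other genes in 8 of the 33, of which 2 were well counted, and in the other 25 the number was 7. The remaining 7 had untranslated ends without a match, and 3 were well counted. The median total was 174 counts among genes running past the stem-loop and 3 among genes annotated by the coding part. Annotated length moves with this split, since a short annotation offers fewer bases to count, and its part was not tested. Among 19 rows for RNAs of other families known to lack a poly(A) tail, such as RN7SK and the U6 RNA RNU6-1, 14 were at 0, 2 had 1 to 19 counts, 1 had 22 and 2 could be tested. One of the tested rows, RN7SL2 of the signal recognition particle, had 8764 counts, more than any clustered histone gene, and 68.9 to 197 CPM. RN7SL1, of the same name family, was at 0. Whether poly(A) selection or removal of ribosomal RNA was used is not given in the sources used here. These rows cannot decide it, since how reads with several matches were counted is not given either.

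**Figure D1:**
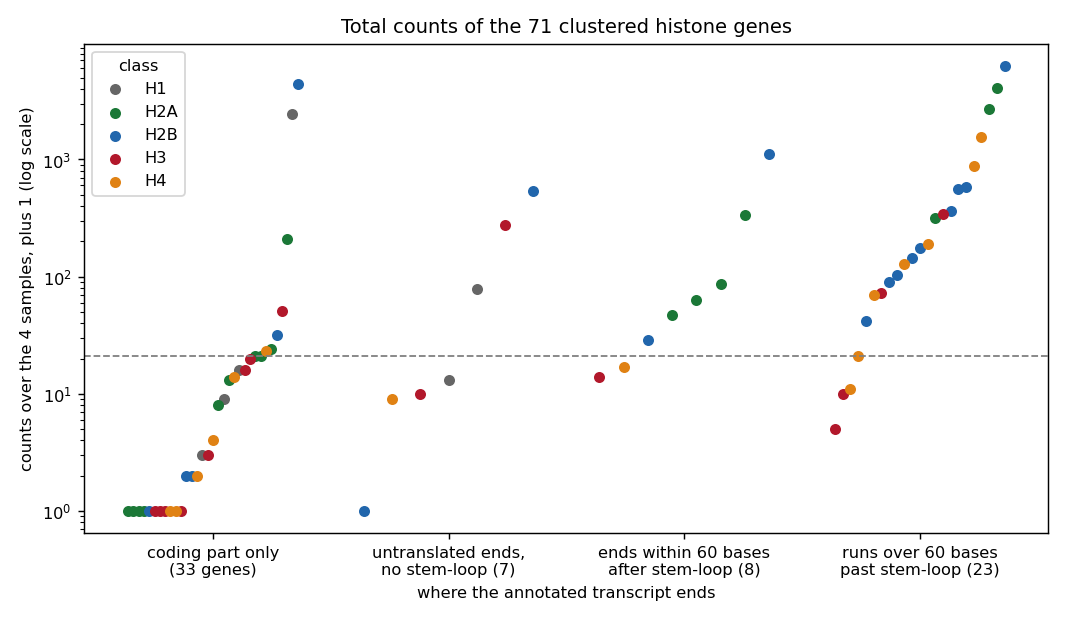
Counts summed over the 4 samples, plus 1, on a log axis, for each of the 71 clustered histone genes (points, coloured by class), by where the annotated transcript ends. The dashed line marks 20 counts, which 20 of the 23 genes running over 60 bases past the stem-loop reach and 9 of the 33 genes annotated by their coding part alone.

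Per kilobase of annotated exon, HIST1H2BK, a gene for H2B, stood highest, at 158 ± 9.99 CPM per kilobase (SD over the 4 samples). Its annotation covers only 381 coding bases, so this value depends on where the annotation stops. HIST3H2A, HIST1H1C and HIST2H2BE came next on this scale, in an order that differed between the groups. In shCON, HIST3H2A had 73.7 and 89.2, HIST1H1C 56.7 and 67.6, and HIST2H2BE 31.2 and 31.5 CPM per kilobase, with no overlap between the genes. In shZDHHC15 they had 48.6 and 39.6, 43.1 and 42.3, and 47.2 and 43.9 CPM per kilobase, and HIST3H2A overlapped both others. None reached the lowest value of HIST1H2BK, 145. Over all 4 samples, HIST1H2AC followed at 22 ± 2.43 CPM per kilobase, below all samples of HIST2H2BE, and then HIST1H2BD (17.4 ± 1.23) and HIST1H4I (16.3 ± 0.485), whose ranges overlapped.

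Knockdown of ZDHHC15 went with changes in single histone genes in both directions. Of the 31 clustered histone genes with enough counts to test, 9 passed an adjusted p of 0.05, where 42.0% of all 15817 genes tested did so. Lower in shZDHHC15 were 6 members, where 20.3% of all genes were called lower. They were HIST1H2BJ, HIST1H2AE, HIST3H2A, HIST1H2BH, HIST1H2BG and HIST1H1C. Higher were 3, where 21.7% of all genes were called higher. They were HIST4H4, HIST1H3E and HIST2H2BE. The median log2 fold change was -0.08 over the 31 genes and 0.02 over all genes tested. The 2 groups did not overlap in CPM for 20 of the 31 members, and for 72.5% of all genes tested. With 2 samples a group, an exact two-sided permutation test of a single gene cannot go below 0.333, so calls rest on the spread estimated across all genes by edgeR.

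**Figure D2:**
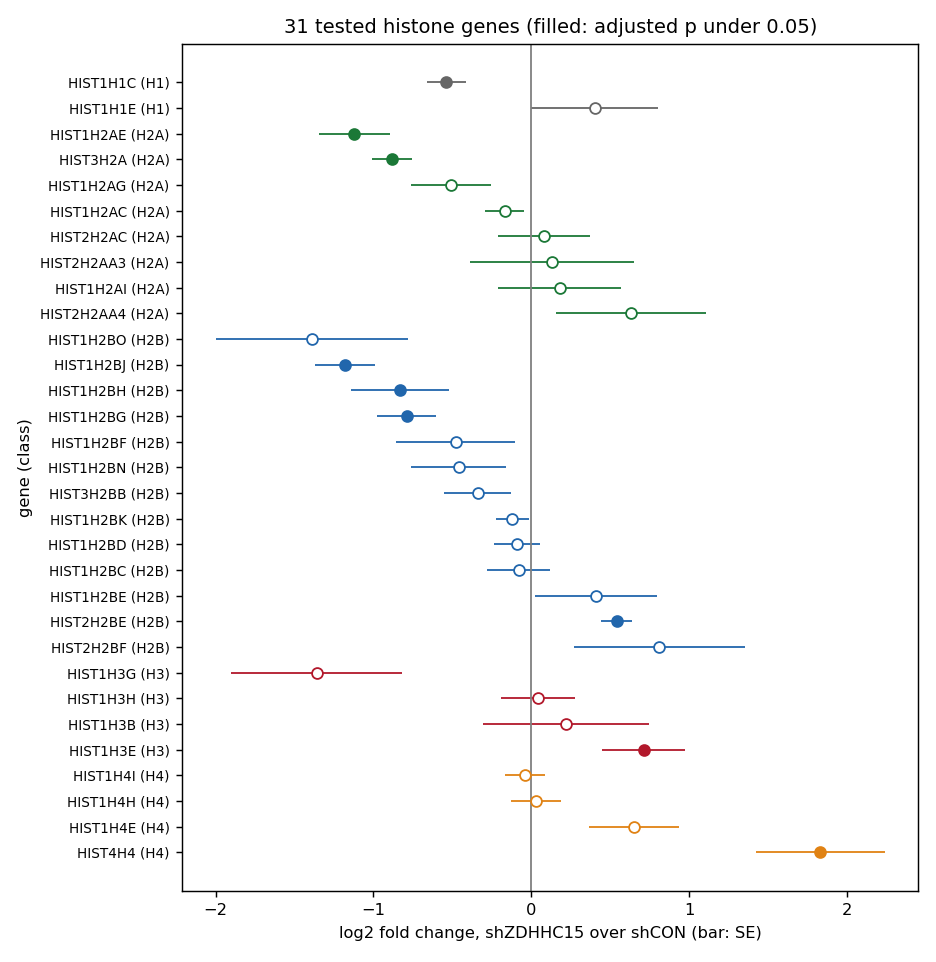
Log2 fold change of shZDHHC15 over shCON (x axis, points) with its SE (bars) for the 31 tested histone genes (y axis), ordered by class and then by fold change. Filled points passed an adjusted p of 0.05: 6 lie below 0 and 3 above, and HIST4H4 lies farthest to the right at 1.83.

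The gene with the lowest adjusted p was HIST3H2A, which encodes an H2A and lies on the minus strand at chr1:228456979-228457873. It had 65.9 and 79.9 CPM in shCON and 43.5 and 35.5 CPM in shZDHHC15. Both shZDHHC15 samples were thus below both shCON samples, and the log2 fold change was -0.88 ± 0.127 (SE, edgeR adjusted p = 6.63e-05). HIST1H2BJ, an H2B gene at chr6:27125897-27132750 (minus strand), had 9.58 and 11.1 CPM in shCON and 4.67 and 4.43 CPM in shZDHHC15. Its fall was the largest among the called members (log2 fold change -1.18 ± 0.191, adjusted p = 0.000186). HIST1H1C, the gene for the linker histone H1.2 at chr6:26055787-26056428 (minus strand), had 36.4 and 43.4 CPM in shCON and 27.7 and 27.2 CPM in shZDHHC15. The groups were apart here too, by a smaller step (-0.54 ± 0.123, adjusted p = 0.00263).

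HIST1H2AE and HIST1H2BG are neighbours that point away from each other and both fell. HIST1H2AE, for H2A (chr6:26216975-26217483, plus strand), had 6.3 and 6.27 CPM in shCON and 2.68 and 3.1 in shZDHHC15 (log2 fold change -1.12 ± 0.225, adjusted p = 0.00112). HIST1H2BG, for H2B (chr6:26215159-26216692, minus strand), had 10.1 and 9.29 CPM in shCON and 5.1 and 6.1 in shZDHHC15 (-0.79 ± 0.187, adjusted p = 0.00339). In neither gene did the groups overlap. HIST1H2BH, another H2B gene (chr6:26251651-26253710, plus strand), was the call nearest the threshold. It had 46 and 42 counts in shCON and 25 and 29 in shZDHHC15, or 2.52 and 2.49 against 1.34 and 1.48 CPM, with a log2 fold change of -0.83 ± 0.311 (adjusted p = 0.0445). Its groups did not overlap, but the call was lost when any 1 sample was left out (adjusted p of 0.0974 without shCON replicate 1, 0.0997 without shCON replicate 2, 0.165 without shZDHHC15 replicate 1 and 0.095 without shZDHHC15 replicate 2). By DESeq2 its adjusted p was 0.185.

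HIST2H2BE, the most-counted histone gene over the 4 samples, went the other way. This H2B gene on the minus strand at chr1:149884459-149886652 had 68.5 and 69.1 CPM in shCON and 104 and 96.2 CPM in shZDHHC15. Both shZDHHC15 samples were above both shCON samples (log2 fold change 0.54 ± 0.0985, adjusted p = 0.000525). In shCON alone, HIST3H2A had more counts than HIST2H2BE in replicate 2 (1349 against 1168) and fewer in replicate 1 (1204 against 1251). Of its 100-base windows, 2.6% also occur in other genes, among them HIST2H2BF, while the other 8 called members shared none. HIST4H4, the single gene of the chromosome 12 locus (chr12:14767999-14771131, minus strand), had 19 and 7 counts in shCON and 57 and 44 in shZDHHC15, or 1.04 and 0.414 against 3.06 and 2.24 CPM. It was low in every sample and its groups did not overlap (log2 fold change 1.83 ± 0.409, adjusted p = 0.00236). The shCON samples differed from each other, and the log2 fold change was 2.63 without shCON replicate 1 and 1.33 without shCON replicate 2, past the threshold in both cases. HIST1H3E, the 1 called H3 gene (chr6:26224199-26227473, plus strand), had 3.4 and 2.19 CPM in shCON and 4.34 and 4.88 CPM in shZDHHC15 (0.71 ± 0.262, adjusted p = 0.0395). Its groups were apart, but the call was lost without shCON replicate 2 (0.44, adjusted p = 0.292), without shZDHHC15 replicate 2 (0.63, adjusted p = 0.126) and by DESeq2 (adjusted p = 0.139).

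**Figure D3:**
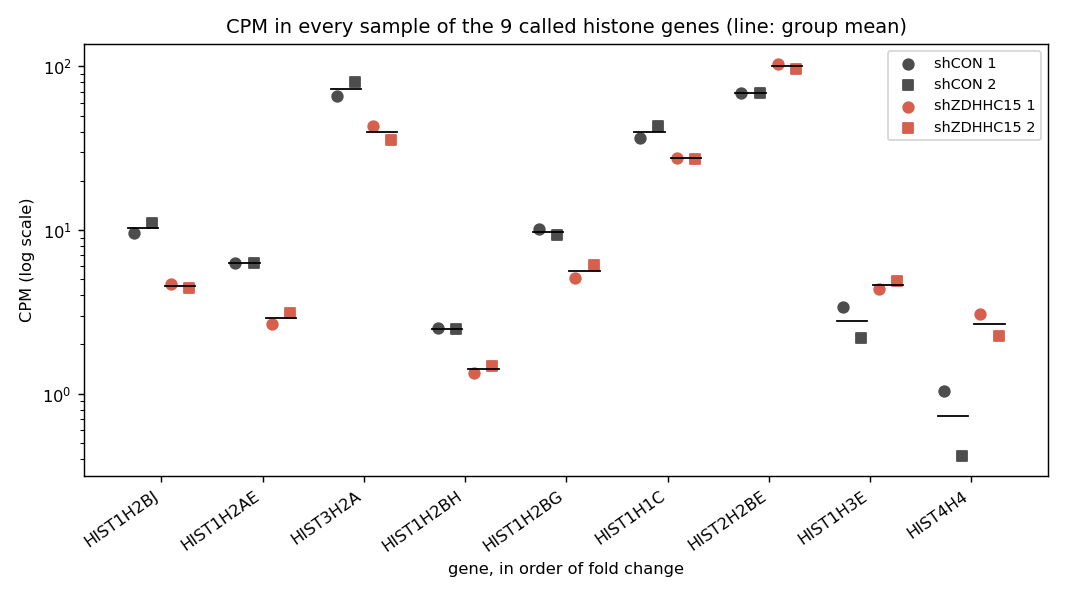
CPM on a log axis of the 9 called histone genes (x axis, in order of fold change) in each of the 4 samples (grey, shCON; red, shZDHHC15; circles, replicate 1; squares, replicate 2), with each group's mean as a line. The groups are apart in all 9 genes, and HIST4H4 shows the widest gap between the shCON samples, 1.04 and 0.414 CPM.

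The other 22 tested members did not pass, with log2 fold changes from -1.39 to 0.81. The largest was that of HIST1H2BO, an H2B gene with 12 and 10 counts in shCON and 5 and 4 in shZDHHC15 (-1.39 ± 0.608, adjusted p = 0.0808). At such counts a difference of this size was not separable from the spread. Well counted genes were among those not called. HIST1H2BK had 60.5 and 64.7 CPM in shCON and 55.4 and 59.8 CPM in shZDHHC15 (-0.12 ± 0.104, adjusted p = 0.384), and its groups were apart by a step that did not pass the test. HIST1H4I, the most-counted H4 gene (chr6:27138588-27139881, plus strand), had 20.9 and 22.1 CPM in shCON and 20.7 and 21 CPM in shZDHHC15 (-0.04 ± 0.128, adjusted p = 0.816). The most-counted H3 gene, HIST1H3H (chr6:27810064-27811300, plus strand), had 5.15 and 4.03 CPM in shCON and 5.36 and 4.12 CPM in shZDHHC15 (0.04 ± 0.235, adjusted p = 0.913). In both, the groups overlapped.

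A further 7 well counted members fell short of the filter for testing. The largest of them, HIST2H4B, had 10 and 4 counts in shCON and 50 and 5 in shZDHHC15, so that 1 sample held most of its 69 counts. Of its 100-base windows, 97.1% also occur in other genes, chiefly its near-identical copy HIST2H4A, and reads of the pair cannot be assigned with certainty. Among the 33 members under 20 counts were 4 of H1, 6 of H2A, 4 of H2B, 11 of H3 and 8 of H4. HIST1H1D, for an H1, was at 0 in both shCON samples and had 4 counts in each shZDHHC15 sample, the 1 member with 3 or more counts in every sample of one group and 0 in the other. The 12 genes at 0 included HIST1H2AA and HIST1H2BA, known from testis. In 5 of the 12, most 100-base windows also occur in other genes (HIST1H3D, HIST1H2AK, HIST2H3PS2, HIST1H2AD and HIST1H2AM). Exons of all 5 also overlap those of another annotated gene at the same place. That gene is AL031777.3 for HIST1H3D and HIST1H2AD, HIST1H2BN (opposite strand) for HIST1H2AK, HIST1H3J for HIST1H2AM and AC239798.4 for HIST2H3PS2. How reads in overlapping genes or with several matches were counted is not given, so a 0 sets no limit for these 5. For the others a count of 0 allows up to 3 counts, or 0.153 to 0.178 CPM across samples, which covers counting error only.

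Many H2A and H2B genes stand head to head with a shared stretch between their starts. There were 12 head-to-head pairs of members, 219 to 357 bases apart. Of these, 11 joined an H2A with an H2B gene, at most 331 bases apart, and 1 joined the H3 gene HIST1H3J with HIST1H2BO. HIST1H2BO also stood in a pair with HIST1H2AM. Annotated exons of HIST1H3J and HIST1H2AM overlap on the same strand, so the stretch between HIST1H2AM and HIST1H2BO was counted in both pairs. In 5 pairs, all of H2A with H2B, both genes were tested. Both passed in 1 pair, HIST1H2BG with HIST1H2AE. In 3 pairs 1 gene passed. HIST2H2BE rose while HIST2H2AC had a log2 fold change of 0.08 (adjusted p = 0.853). HIST3H2A fell while HIST3H2BB stood at -0.34 (adjusted p = 0.219), and HIST1H2BJ fell while HIST1H2AG stood at -0.51 (adjusted p = 0.119). In the pair of HIST1H2BC (-0.08) and HIST1H2AC (-0.17) neither passed. Whether the fold changes within a pair differ was not tested.

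**Figure D4:**
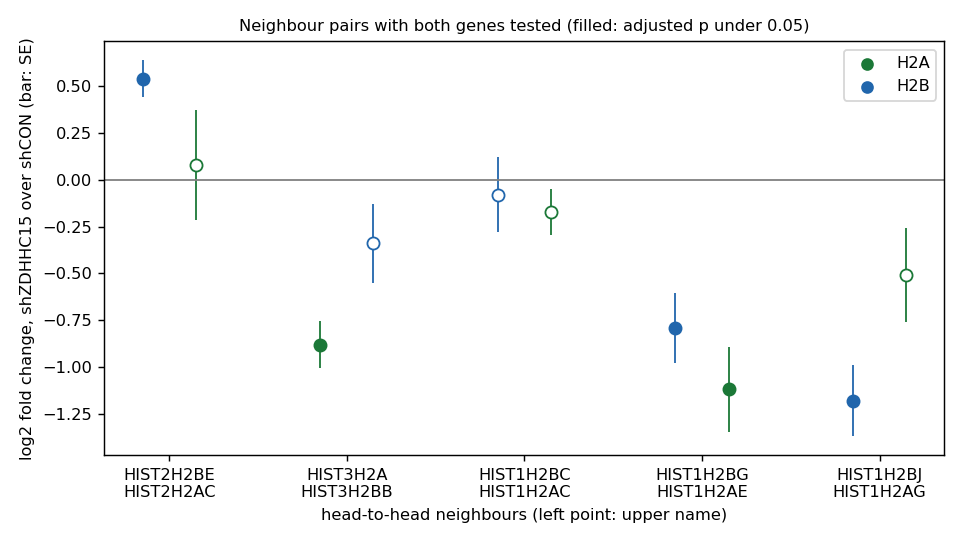
Log2 fold change of shZDHHC15 over shCON (y axis, points) with its SE (bars) for the 5 head-to-head pairs in which both genes were tested (x axis; green, H2A; blue, H2B). Filled points passed an adjusted p of 0.05, as both genes did for HIST1H2BG and HIST1H2AE and neither did for HIST1H2BC and HIST1H2AC.

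The sequence before the start was at hand for 57 of the 71 genes (RefSeq, GRCh38.p14, 250 bases upstream). Of these, 13 of 16 H2B and 11 of 14 H2A genes held the octamer ATTTGCAT on either strand, the site bound by POU2F1, against 0 of the 6 H1, 8 H3 and 13 H4 genes and 1.6% of 35116 promoters. Windows of head-to-head neighbours can overlap, so that the same octamer counts for both an H2A and an H2B gene. This was so for HIST2H2BE with HIST2H2AC and for HIST1H2BG with HIST1H2AE. It was also so for HIST1H2AA with HIST1H2BA, HIST1H2BC with HIST1H2AC, HIST1H2AD with HIST1H2BF and HIST1H2BJ with HIST1H2AG. The same held for HIST1H2AJ with HIST1H2BM and HIST1H2AM with HIST1H2BO. The octamer shares of the H2A and H2B classes are therefore largely not independent. The CCAAT box stood in all H1, H2A, H2B and H3 windows and in 3 of 13 H4 windows (all promoters, 32.0%). TATAAA stood in 64.9% of the histone windows (all promoters, 10.7%). The windows printed are those of the most-counted called gene that rose, of a pair that fell together, of the called gene with the lowest adjusted p, and of the called H4 gene. Each is written in the direction of its gene, with the 3 motifs in capitals on either strand.
HIST2H2BE, chr1:149886683-149886932, minus strand: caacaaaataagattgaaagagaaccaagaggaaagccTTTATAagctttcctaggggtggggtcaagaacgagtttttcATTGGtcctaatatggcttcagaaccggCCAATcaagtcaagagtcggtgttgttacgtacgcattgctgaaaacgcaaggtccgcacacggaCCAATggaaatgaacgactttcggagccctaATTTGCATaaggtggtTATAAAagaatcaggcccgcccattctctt
HIST1H2BG, chr6:26216689-26216938, minus strand: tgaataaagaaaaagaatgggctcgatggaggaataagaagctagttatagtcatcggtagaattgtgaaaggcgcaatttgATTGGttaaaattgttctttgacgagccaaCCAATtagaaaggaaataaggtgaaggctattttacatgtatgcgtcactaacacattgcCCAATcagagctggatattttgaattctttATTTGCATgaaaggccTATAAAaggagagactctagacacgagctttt
HIST3H2A, chr1:228457874-228458123, minus strand: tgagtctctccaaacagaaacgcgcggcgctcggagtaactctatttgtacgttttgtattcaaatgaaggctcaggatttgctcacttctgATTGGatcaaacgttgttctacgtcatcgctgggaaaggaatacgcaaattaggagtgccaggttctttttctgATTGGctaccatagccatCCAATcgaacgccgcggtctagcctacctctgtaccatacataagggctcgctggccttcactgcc
HIST4H4, chr12:14771132-14771381, minus strand: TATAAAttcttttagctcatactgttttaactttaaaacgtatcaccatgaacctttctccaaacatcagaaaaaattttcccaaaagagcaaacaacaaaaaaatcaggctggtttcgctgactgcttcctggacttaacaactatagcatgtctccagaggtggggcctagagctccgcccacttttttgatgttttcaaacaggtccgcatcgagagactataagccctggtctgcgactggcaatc

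The HIST2H2BE and HIST1H2BG windows held all 3 motifs, with the octamer 46 and 48 bases before the start and a TATAAA 30 and 32 bases before it. These genes moved in opposite directions. The HIST3H2A window held CCAAT on either strand at 3 places and neither other motif, and the HIST4H4 window held TATAAA once, at its far end. A match is a run of letters and not a shown site of binding.

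Summed over the well counted members of a class, the levels differed between the groups in different directions, and these sums were not tested. The H2A sum was 118 and 140 CPM in shCON and 91.7 and 82 CPM in shZDHHC15 (log2 ratio of the group means -0.58). The H1 sum, nearly all HIST1H1C, was 37.2 and 44.4 CPM against 28.9 and 28.3 CPM (-0.51). In both classes the groups were apart, with shZDHHC15 lower. The H2B sum was 187 and 193 CPM against 205 and 198 CPM (0.08), and the H4 sum 37.2 and 36.6 CPM against 42.6 and 38.7 CPM (0.14). For H2B and H4 the groups were apart by a smaller step, with shZDHHC15 higher. The H3 sum overlapped between groups, at 11 and 7.87 CPM against 10.9 and 10.3 CPM (0.18). The sums did not follow most genes of a class. Over the tested H2A genes the median log2 fold change was -0.04, with 4 above 0 and 4 below. Over the tested H2B genes it was -0.34, with 3 above 0 and 10 below, although the H2B sum was higher. Single genes set several of these sums. Without HIST2H2BE the H2B sum was 119 and 124 CPM in shCON and 101 and 102 CPM in shZDHHC15, a log2 ratio of -0.25 in place of 0.08. Without HIST3H2A the H2A ratio was -0.25, and without HIST1H1C the H1 class was left with HIST1H1E alone (0.40). By cluster, HIST1 summed to 245 and 261 CPM in shCON and 218 and 212 CPM in shZDHHC15. HIST2 summed to 73.6 and 75.2 against 111 and 103 CPM, and HIST3 to 71.4 and 85.4 against 47.6 and 40.1 CPM. These sums were nearly those of HIST2H2BE and HIST3H2A, the called genes described above. Without HIST2H2BE the HIST2 sum was 5.04 and 6.1 against 7.19 and 7.02 CPM, and without HIST3H2A the HIST3 cluster was left with HIST3H2BB, at 5.48 and 5.56 against 4.08 and 4.63 CPM. The 38 well counted histone genes together made 391 and 422 CPM in shCON and 379 and 358 CPM in shZDHHC15 (log2 ratio -0.14).

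**Figure D5:**
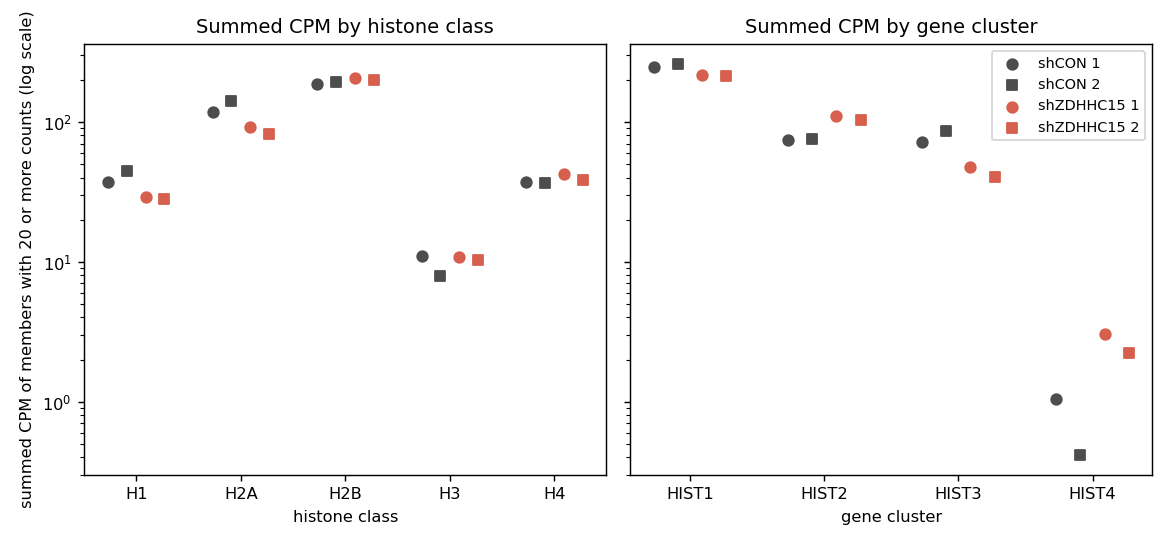
Summed CPM, on a log axis, of the histone genes with 20 or more counts, by class (left) and by gene cluster (right), in each of the 4 samples (grey, shCON; red, shZDHHC15; circles, replicate 1; squares, replicate 2). The HIST2 sum is higher in both shZDHHC15 samples (111 and 103 CPM) than in shCON (73.6 and 75.2 CPM) and the HIST3 sum lower, each sum being mostly 1 gene, HIST2H2BE or HIST3H2A.

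Genes outside the clusters that make or handle histones were counted beside them. Of the 19 histone genes outside the clusters, mostly variants used apart from DNA replication, 11 were tested and 6 were lower. Their median log2 fold change was -0.47. The share called was 54.5%, all lower, where 42.0% of all genes tested were called and 20.3% were called lower. By edgeR 0 were higher, also at an unadjusted p of 0.05 and by DESeq2. H1F0, a linker histone of resting cells, had 239 and 260 CPM in shCON and 112 and 91.7 CPM in shZDHHC15 (-1.30, adjusted p = 2.77e-07). CENPA, the H3 variant of centromeres, had 70.6 and 76.2 CPM against 31.2 and 32.4 CPM (-1.21, adjusted p = 6.46e-07). Both were lower in each shZDHHC15 sample than in any shCON sample. H1FX, a linker histone, had a log2 fold change of -0.90 (adjusted p = 8.52e-06). H2AFX, the H2A variant phosphorylated at DNA breaks, had 339 and 377 CPM against 202 and 201 CPM (-0.83, adjusted p = 5.89e-06). H2AFX was also among the 9 genes outside the members whose transcripts held the stem-loop. H2AFZ, for H2A.Z, stood at -0.47 (adjusted p = 0.000769), while H3F3B, for H3.3, stood at 0.03 (adjusted p = 0.84).

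Of 27 regulators of clustered histone genes and of their mRNA, all were tested, 7 were higher and 4 lower, and the median was -0.00. The share called was 40.7%, near the 42.0% of all genes tested. SLBP, which binds the stem-loop, had 182 and 188 CPM in shCON and 174 and 179 CPM in shZDHHC15 (log2 fold change -0.07 ± 0.0898, adjusted p = 0.581). NPAT, the activator of histone gene transcription that cyclin E and CDK2 act on, had 15.9 and 10.9 CPM against 20 and 19.5 CPM (0.55 ± 0.167, adjusted p = 0.0151). The groups of NPAT did not overlap, but its call was lost without shCON replicate 2 (0.31, adjusted p = 0.154), and without shCON replicate 1 it stood at 0.84. CCNE2, for cyclin E2, rose most (1.05, adjusted p = 5.84e-06), followed by CASP8AP2, a partner of NPAT (0.86, adjusted p = 0.00201), and by POU2F1, the octamer-binding factor (0.63, adjusted p = 0.00418). CASP8AP2 stood at 0.53 without shCON replicate 2, still past the threshold. HINFP, an activator of H4 genes, fell (-0.62, adjusted p = 0.00259). Without shZDHHC15 replicate 1, and likewise without shZDHHC15 replicate 2, the lower count was 2.

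Of 28 histone chaperones and related enzymes, 27 were tested, 7 were higher and 3 lower, with a median log2 fold change of 0.11. The share called was 37.0%, against 42.0% of all genes tested. UBN2 of the H3.3 chaperone complex HIRA (0.77, adjusted p = 0.000888), ATRX, which deposits H3.3 (0.65, adjusted p = 0.00458), HAT1, which acetylates new H4 (0.47, adjusted p = 0.00144), and NASP, a carrier of H3 and H4 (0.43, adjusted p = 0.00207), were higher. The call of ATRX was lost by DESeq2 (adjusted p = 0.121) and with no filter on low counts (0.0849), and its log2 fold change was 1.02 without shCON replicate 1 and 0.35 without shCON replicate 2. Without shZDHHC15 replicate 1 the chaperone count was 4 higher and, by edgeR, 0 lower (2 at an unadjusted p of 0.05), and without shZDHHC15 replicate 2 the lower count was 1. Of 38 genes of DNA replication and S phase, all were tested, 14 were higher and 3 lower, with a median of 0.19. The share called was 44.7%, near the 42.0% of all genes tested. The count was 7 higher and 1 lower with no filter on low counts, and 19 higher and 1 lower with scaling by library size alone. CCNE2 led these too, followed by the polymerase subunit POLA1 (0.90, adjusted p = 3.09e-05), CLSPN of the replication checkpoint (0.67, adjusted p = 0.000554) and RRM1 of deoxynucleotide synthesis (0.54, adjusted p = 0.000494). The S-phase count rested partly on single samples, since without shZDHHC15 replicate 1 it was 6 higher and 1 lower, and the lower count was 6 without shCON replicate 1 and 1 without shCON replicate 2 or shZDHHC15 replicate 2. Over the 4 lists together, 27 genes were higher and 16 lower, and 34 and 10 with scaling by library size alone.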

How the data were processed

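The authors sequenced RNA of 4 HCC1954 samples (2 shCON, 2 shZDHHC15) with the NEBNext Ultra RNA kit and deposited counts per gene. These were taken here to be raw counts. The submitters' processing notes name HISAT2, StringTie, SAMtools and hg38. The counting tool, its strand setting and its handling of reads with several matches are not given in the sources used here. All 58735 gene identifiers matched GENCODE 29 by position and symbol.

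Genes were kept by edgeR's filterByExpr and tested with its quasi-likelihood test (edgeR 4.0.16, TMM scaling, R 4.3.3) over all 15817 genes kept, with Benjamini-Hochberg adjustment at 0.05. CPM are TMM-scaled. Tested on simulated data for this comparison (15472 genes, 200 changed by 1.5 on the log2 scale), the edgeR test recovered 82%. Of its calls there, 5.75% were false. The simulated counts used the spread that edgeR itself fitted, and few genes were changed. In the data 42.0% of genes tested were called, so these 2 shares may not carry over. Most called histone genes changed by less than 1.5, and recovery of such smaller changes was not simulated. DESeq2 1.42.0 served as an alternative. Replicates of a group differed by more than sampling noise (chi-square per degree of freedom 8.32 and 6.79). Depth limits genes under about 20 counts.

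Sequence shared with other genes was measured as identical 100-base transcript windows. The members and gene lists were chosen with earlier results of these data known. Named were all called members, the most-counted gene of each class, the largest change not called, any member with 3 or more counts in every sample of one group and 0 in the other, up to 4 called genes of each further list with the largest changes, and SLBP, NPAT, H2AFZ, H3F3B and H2AFX. One marker of other cell types is not reported here. Other genes, such as head-to-head neighbours, were named after their values were seen.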

Additional observations from a re-analysis of the deposited data

How the results depend on the processing

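The counts of calls and the fold changes were recomputed under 12 alternatives each. Of the 9 called histone genes, 7 stayed past the threshold in the same direction under all 12. HIST1H2BH stayed so in 5 and HIST1H3E in 8. All 9 kept their direction. Under no filter on low counts, 2282 of all genes were called higher, and over the 4 further lists 14 were higher and 10 lower. ATRX (adjusted p = 0.0849), NPAT (0.102) and POU2F1 (0.0741) then missed the threshold, and ATRX also by DESeq2 (0.121). Scaling by library size alone gave 10 lower in those lists and a histone median of -0.00. It moved the median of all genes by 0.07 and the summed log2 ratios to -0.07 (all histone genes), 0.16 (H2B), 0.21 (H4), -0.16 (HIST1) and 0.60 (HIST2), and HIST1H2BH missed the threshold (adjusted p = 0.0666). The histone median was -0.11 with no filter, with at least 20 counts in total and with upper-quartile factors.

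With 1 sample left out, where the lone sample of a group is assumed to vary like the other group's, the histone median ran from -0.19 to -0.05. Calls over the 4 lists ran from 15 to 27 higher and 9 to 20 lower, the low ends without shZDHHC15 replicate 1. The summed log2 ratios ran from -0.63 to -0.38 for H1, from -0.04 to 0.43 for H3, from 0.07 to 0.21 for H4 and from 1.35 to 2.68 for HIST4, the extremes for H1 and H3 coming without a shCON sample. Without its most-counted member, chosen after seeing the data, the ratio was 0.40 for H1, -0.25 for H2A, -0.25 for H2B, 0.36 for H4, 0.35 for HIST2 and -0.34 for HIST3. The cause of these changes was not tested beyond the samples or genes left out.

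The same replicate numbers stand in both groups. Same-numbered deviations correlated at 0.0821, a value that cannot show whether the samples were prepared in pairs. With the number as a replicate block, 3710 genes were called higher and 3491 lower, and 3 and 7 among the histone genes.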

Other observations

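The count table also holds 19 pseudogene rows with clustered histone names, which are not protein-coding and not counted above. Of these, 2 could be tested and both rose. HIST2H2BC had 202 and 133 counts in shCON and 422 and 395 in shZDHHC15 (log2 fold change 1.17 ± 0.168, edgeR adjusted p = 6.84e-05). HIST2H2BD had 138 and 102 counts against 195 and 227 (0.69 ± 0.181, adjusted p = 0.00671). These rows overlap each other on opposite strands of chromosome 1 (149844498 to 149850937 and 149842875 to 149846486), and 38.3% and 69.1% of their 100-base windows occur in other genes, so their reads cannot be told apart with certainty. Both hold the same stem-loop form as HIST1H2AG:
HIST2H2BC: ccaaaGGCTCTTTTCAGGGCCattta
HIST2H2BD: ccaaaGGCTCTTTTCAGGGCCactta
Of the other 17 rows, the highest total was 11 counts.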
